A study of Mus musculus with 8 samples.

Results

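*Cxcl9*, *Cxcl10* and *Cxcl11* encode small secreted chemokines that interferons induce, and *Cxcr3* encodes the receptor through which all 3 ligands attract cells. The genes were listed by symbol, each symbol was matched to its Ensembl identifier in the GENCODE M39 annotation, and they are 4 of the 55416 genes in the deposited count files. As background, the ligands belong to the CXC chemokines that lack the ELR motif, and they act on activated T cells and natural killer (NK) cells, which carry the G protein-coupled receptor CXCR3, and not on neutrophils. Transcription of *Cxcl9* depends mainly on interferon gamma, while *Cxcl10* also answers to type I interferons and to tumour necrosis factor. In the lung, endothelial cells, epithelial cells and macrophages are known sources of these ligands.

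The study sequenced RNA from lung tissue of 8 female C57BL/6 mice (C57BL/6J in the methods), 6 to 8 weeks old, in a model of endotoxic shock, and asked what YW3-56, an inhibitor of protein arginine deiminases, changes in it. Control mice (1, 2 and 4) received dimethyl sulfoxide (DMSO) by vein and then saline into the peritoneum. Mice of the LPS group (1, 6 and 7) received lipopolysaccharide (LPS) at 35 mg/kg. Mice of the dual-treatment group (2 and 5) received YW3-56 at 10 mg/kg, dissolved in DMSO, ahead of the same dose of LPS, and lungs were taken 24 h after LPS. The methods name DMSO for the control and YW3-56 injections and not for the LPS group, so in comparisons with that group the vehicle and the treatment cannot be told apart. The methods also speak of 3 sequenced mice per group, whereas the labels give 2 dual-treated mice.

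Counts assigned to genes came to 19061949, 19796242 and 20527836 in control mice 1, 2 and 4. They came to 20818501, 19379911 and 19279724 in LPS mice 1, 6 and 7, and to 19875939 and 20908608 in dual-treated mice 2 and 5. Levels are given as CPM, the usual share of a gene in its library's counts, with each library total first scaled by edgeR's TMM factor. These factors were 1.07, 1.08 and 1.06 for control mice 1, 2 and 4, 0.81, 0.894 and 0.93 for LPS mice 1, 6 and 7, and 1.11 and 1.09 for dual-treated mice 2 and 5. A gene was called a differentially expressed gene (DEG) when its fold change was over 2 and its p from edgeR's quasi-likelihood test, adjusted by the Benjamini-Hochberg method over all 18560 tested genes, was under 0.05. The 3 comparisons share mice with each other, so values for the same gene in different comparisons are not independent.

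A pair of LPS libraries stood apart from the other 6 by markers of tissues other than lung. The summed level of 6 squamous epithelium markers was 745 CPM in LPS mouse 6 and 2010 CPM in LPS mouse 7, against 0.534 CPM in LPS mouse 1 and at most 21.7 CPM in the control and dual-treatment groups. *Krt13* and *Krt4* were the most abundant in these mice, and *Krt14* in the control and dual-treatment groups. *Krt13* reached 286 and 887 CPM in mice 6 and 7 and 0.297 CPM in mouse 1, where 4 of the 6 markers had no count. The summed level of 6 skeletal muscle markers was 434 and 1160 CPM in mice 6 and 7, 15.9 CPM in LPS mouse 1 and at most 18.2 CPM elsewhere, with *Acta1*, at 210 and 600 CPM, the most abundant in mice 6 and 7. The fit called 5 squamous and 6 muscle markers higher in the LPS group, or 2 and 4 of them when either LPS mouse 6 or LPS mouse 7 was left out. Without both mice the log2 fold change of *Krt13* was 0.63 in place of 10.97 and that of *Acta1* 0.64 in place of 9.58, and neither was a DEG. Fold changes and DEG calls of the 4 genes are therefore given with and without these mice, where leaving out both leaves 1 LPS library that is assumed to vary like the other groups. Ratio tests, kept shares, ranks and similarity of pattern use all 8 libraries, and the part of these tissues in the results was not tested.

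The 3 ligand genes lie side by side on the minus strand of chromosome 5, within 44.1 kb of the GRCm39 assembly. *Cxcl9* (ENSMUSG00000029417) spans chr5:92469206-92475945 with 4 merged exons of 3023 bases in all. *Cxcl10* (ENSMUSG00000034855) spans chr5:92494497-92496748 as 1 merged exon block of 2252 bases, in which introns of some transcripts are covered by others. *Cxcl11* (ENSMUSG00000060183) spans chr5:92507403-92513344 with 4 merged exons of 3794 bases. The reference mouse strain is C57BL/6J, and GENCODE annotates the *Cxcl11* transcript of this strain as a loss-of-function allele of a coding gene, so counts for it measure RNA and not an intact ligand. *Cxcr3* (ENSMUSG00000050232) lies on the minus strand of the X chromosome at chrX:100775141-100777875, with 2 merged exons of 1731 bases. Exons of other genes on the opposite strand share 133 bases (5.9%) of *Cxcl10*, which belong to *Art3*, and 1582 bases (41.7%) of *Cxcl11*, which belong to the processed pseudogene *Gm2673*. *Gm2673* had 0 counts in all 8 libraries.

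The comparison of the LPS group with the control group asks what endotoxic shock changed at 24 h. *Cxcl9* stood at 0.685, 0.657 and 1.29 CPM in control mice 1, 2 and 4 and at 962, 764 and 615 CPM in LPS mice 1, 6 and 7. The LPS libraries were close to each other, within a factor of 1.57, and far above every control library. The log2 fold change was 9.78 (SE 0.479), or 880-fold, with an adjusted p of 6.16e-07 in edgeR's quasi-likelihood test after Benjamini-Hochberg adjustment, the 31st highest of 18560. In these bulk samples, more cells of a type and more RNA per cell cannot be told apart.

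*Cxcl10*, the ligand with the most counts, stood at 11.8, 11.1 and 11.8 CPM in control mice 1, 2 and 4 and at 4970, 2010 and 2330 CPM in LPS mice 1, 6 and 7. The control libraries were nearly equal, the LPS libraries were all far above them, and LPS mouse 1 stood above the other LPS mice. The log2 fold change was 8.07 (SE 0.584), or 268-fold, with an adjusted p of 3.32e-06 in the same test, and it ranked 77th from the top. Between LPS mice 1 and 6 *Cxcl10* differed by 2.48-fold, and 5.45% of genes differed by more between that pair of libraries.

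*Cxcl11* was at 0.196, 0.0939 and 0.138 CPM in control mice 1, 2 and 4, which rests on 4, 2 and 3 counts. It was at 15.9, 10.6 and 5.64 CPM in LPS mice 1, 6 and 7, from 268, 183 and 101 counts. The LPS libraries differed from each other by more than for *Cxcl9*, mouse 1 was the highest and mouse 7 the lowest, and the groups did not overlap. From the summed counts the LPS level was 74.8-fold the control level, with a 95% counting interval from 39.1 to 164. The fitted log2 fold change was 6.17 (SE 0.508, adjusted p 6.56e-06 in edgeR's quasi-likelihood test after Benjamini-Hochberg adjustment). *Cxcl11* passed the filter on low counts through the LPS libraries only, since no control or dual-treated library had more than 4 counts, so its DEG call is that of a gene admitted by the group in which it was high. With no filter on low counts the log2 fold change was 6.14 and *Cxcl11* was again a DEG. Counting intervals cover counting error alone, because reads amplified by PCR are not independent molecules.

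*Cxcr3*, the receptor, was low in every library and moved the other way. It had 32, 28 and 38 counts in control mice 1, 2 and 4, or 1.57, 1.31 and 1.75 CPM, and 11, 7 and 7 counts in LPS mice 1, 6 and 7, or 0.653, 0.404 and 0.391 CPM. Each LPS library lay below each control library. The log2 fold change was -1.67 (SE 0.375), which is 3.18-fold lower in the LPS group, with an adjusted p of 0.00324 in the same test. That call rests on few counts. Without LPS mouse 6 the log2 fold change was -1.55 and without LPS mouse 7 it was -1.53, and *Cxcr3* was a DEG in both fits. Without both, when the LPS group is 1 library, it was -1.23 with an adjusted p of 0.0719 in edgeR's quasi-likelihood test, against 0.00106 to 0.0719 over all alternatives. The part of low depth for this gene in the LPS group was not tested.

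In the LPS group, 3 of the 4 genes were thus DEGs with higher and 1 with lower RNA, where 39.2% of all tested genes were DEGs in either direction, 17.9% higher and 21.3% lower. Since *Cxcl11* entered the test through the LPS libraries, these counts describe the genes and support nothing further, here and against the dual-treatment group. The median log2 fold change of all tested genes was -0.01. Without LPS mice 6 and 7 the log2 fold changes of the ligands were 10.09 for *Cxcl9*, 8.75 for *Cxcl10* and 6.75 for *Cxcl11*, all larger than with them.

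The comparison of the dual-treatment group with the LPS group asks what YW3-56 given before LPS changed. *Cxcl9* was at 27.2 CPM in dual-treated mouse 2 and 10.4 CPM in mouse 5, against 615 to 962 CPM in the LPS group. Both dual-treated libraries lay far below the lowest LPS library. The log2 fold change was -5.38 (SE 0.444), a level 41.6-fold lower, with an adjusted p of 1.47e-05 in edgeR's quasi-likelihood test after Benjamini-Hochberg adjustment. It was -6.26 without dual-treated mouse 2 and -4.86 without mouse 5.

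For *Cxcl10* the dual-treated mice 2 and 5 had 28.2 and 7.99 CPM, against 2010 to 4970 CPM in the LPS group. Again both lay far below all LPS libraries, and mouse 2 was above mouse 5. The log2 fold change of -7.42 (SE 0.683, adjusted p 2.55e-05 in the same test) was a level 172-fold lower and ranked 75th from the bottom of 18560 genes. The fold depends on the mouse: the log2 value was -8.61 without dual-treated mouse 2 and -6.79 without mouse 5. For *Cxcl9* the rank from the bottom was 183rd.

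*Cxcl11* fell to 0.0908 and 0.176 CPM in mice 2 and 5, from 2 and 4 counts. Those counts are as few as in the control group, and the LPS libraries all lay above them. The LPS level was 79.2-fold the dual-treatment level, with a 95% counting interval from 36.1 to 217, and the fitted log2 fold change was -6.26 (SE 0.607, adjusted p 3.46e-05 in edgeR's quasi-likelihood test). *Cxcr3* had 19 and 20 counts in mice 2 and 5, or 0.862 and 0.878 CPM. These libraries lay above every LPS library and below every control library. Its log2 fold change from the LPS group was 0.85 (SE 0.419), with a 95% confidence interval from -0.09 to 1.79 and an adjusted p of 0.108 in the same test, so it was not a DEG.

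In this comparison 3 of 4 genes were DEGs, all lower in the dual-treatment group, where 33.8% of tested genes were DEGs in either direction, 19.8% higher and 14.0% lower. The median log2 fold change of all tested genes was 0.06. Without LPS mice 6 and 7 the log2 fold changes were -5.69 for *Cxcl9*, -8.11 for *Cxcl10*, -6.84 for *Cxcl11* and 0.41 for *Cxcr3*. Scaling by library size alone shifted the median of all genes to -0.29 for LPS against control and to 0.38 for dual-treatment against LPS. Under that scaling *Cxcr3* had a log2 fold change of 1.18 between the dual-treatment and LPS groups and an adjusted p of 0.0312 in edgeR's quasi-likelihood test, against 0.0312 to 0.547 over all alternatives. Relative to the median of all genes it was 0.80 under that scaling and 0.79 under TMM. The median-relative values of the ligands also differed little between those scalings, with -5.42 and -5.44 for *Cxcl9*, -7.44 and -7.48 for *Cxcl10*, and -6.29 and -6.32 for *Cxcl11*.

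**Figure D1:**
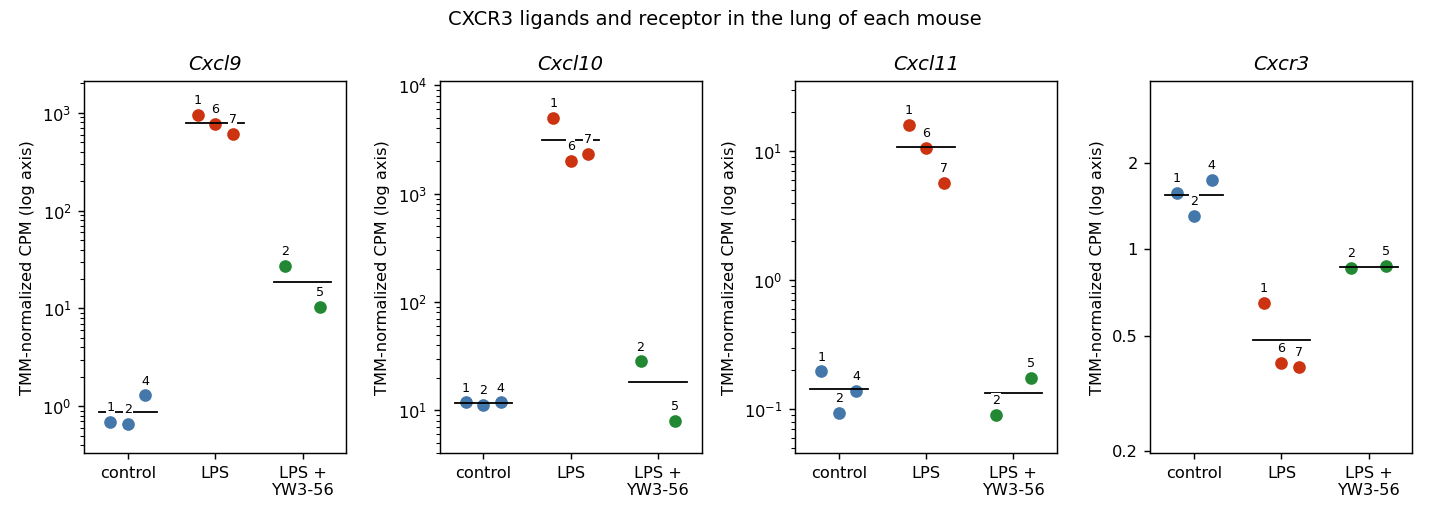
Levels of the 4 genes in TMM-scaled CPM on a log axis, with 1 point per mouse (numbered) for the control, LPS and dual-treatment groups and a black line at each group mean. *Cxcl9* ran from a mean of 0.877 CPM in control to 780 CPM in LPS and 18.8 CPM in dual-treated mice, *Cxcl10* from 11.6 to 3100 and 18.1 CPM, *Cxcl11* from 0.143 to 10.7 and 0.133 CPM, and *Cxcr3* from 1.54 to 0.483 and 0.87 CPM.

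Set against the control group, the dual-treated mice show which genes were back near their control level at 24 h after LPS. *Cxcl9* was not: its 27.2 and 10.4 CPM lay above the 0.657 to 1.29 CPM of the control mice. The groups did not overlap, the log2 fold change was 4.40 (SE 0.453), or 21.2-fold, the 61st highest of 18560, and the adjusted p was 0.000338 in edgeR's quasi-likelihood test after Benjamini-Hochberg adjustment. The log2 value was 3.52 without dual-treated mouse 2 and 4.91 without mouse 5. *Cxcl9* was the 1 DEG among the 4 genes, in a comparison where 7.15% of tested genes were DEGs in either direction, 5.25% higher and 1.90% lower. The median log2 fold change of all tested genes was 0.00.

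*Cxcl10* overlapped between the control and dual-treatment groups, because mouse 5, at 7.99 CPM, lay below all control mice while mouse 2, at 28.2 CPM, lay above them. Its log2 fold change of 0.64 (SE 0.502) had a 95% confidence interval from -0.48 to 1.77 and an adjusted p of 0.432 in the same test. Without dual-treated mouse 2 the sign reversed, to -0.56, and without mouse 5 the value was 1.26. *Cxcl11* overlapped too, and from the summed counts the dual-treatment level was 0.945 of the control level, with a counting interval from 0.277 to 2.97. At 9 counts in the control group and 6 in the dual-treatment group, a difference within that interval was not detectable at this depth. *Cxcr3* was lower in both dual-treated mice than in any control mouse, by a log2 fold change of -0.82 (SE 0.394) with a 95% confidence interval from -1.71 to 0.06, and its adjusted p was 0.195 in edgeR's quasi-likelihood test.

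The share of the LPS response that each dual-treated mouse kept was computed on the log2 scale, with 2 counts added, as the distance of the mouse from the control mean over the distance of the LPS mean from the control mean. For *Cxcl9* it was 50.3% in mouse 2 and 36% in mouse 5. For *Cxcl10* it was 16.1% and -6.64%, where a negative share is a level below the control mean. Both *Cxcl11* values, -6.05% and 3.83%, lay near 0. The *Cxcr3* decrease was kept by 50.3% and 48.8%. Thus *Cxcl9* kept more of its LPS response than *Cxcl10* and *Cxcl11* in both mice, and mouse 2 kept more than mouse 5 for *Cxcl9* and *Cxcl10*. Whether these shares differ between genes was not tested.

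In the ligands, dual-treated mice 2 and 5 were further apart than in most genes. *Cxcl9* was 2.61-fold and *Cxcl10* 3.5-fold higher in mouse 2 than in mouse 5, and 4.55% and 2.34% of genes differed by more. The corresponding log2 differences were 1.38 and 1.81, against a median absolute difference of 0.249 over all genes. *Cxcr3* differed by -0.02 on this scale and *Cxcl11* by -0.53, the latter at 2 and 4 counts.

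Levels of different genes were compared per kilobase of merged exons. In the control group *Cxcl10* was highest at 5.13 ± 0.188 CPM per kb (SD, n = 3), followed by *Cxcr3* at 0.891 ± 0.126, *Cxcl9* at 0.29 ± 0.118 and *Cxcl11* at 0.0376 ± 0.0135. No neighbours in this order overlapped between mice. In the LPS group the order was *Cxcl10* at 1380 ± 721, *Cxcl9* at 258 ± 57.7, *Cxcl11* at 2.82 ± 1.35 and *Cxcr3* at 0.279 ± 0.0852 CPM per kb (SD, n = 3), again with no overlap. The receptor thus passed from second to last place while its ligands rose. In the dual-treatment group *Cxcl10* at 8.03 ± 6.34 and *Cxcl9* at 6.21 ± 3.93 CPM per kb (SD, n = 2) overlapped between mice, although *Cxcl10* was the higher of the pair within each mouse. *Cxcr3* at 0.503 ± 0.00647 and *Cxcl11* at 0.0351 ± 0.0158 CPM per kb followed without overlap.

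Among 18488 genes ranked by level per kilobase, *Cxcl10* was 17th in the LPS group, 6357th in the control group and 4552nd in the dual-treatment group. *Cxcl9* was 130th, 15603rd and 5641st in the same groups. *Cxcl11* reached no higher than 8686th, in the LPS group, and *Cxcr3* no higher than 12903rd, in the control group. Leaving out the exon bases that *Cxcl11* shares with other genes from its length, a choice that assumes no reads fell there, raised its LPS level to 4.84 CPM per kb, still far below *Cxcl9*.

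The 3 ligands together took 0.481% (95% exact binomial interval 0.478 to 0.484) of all counts in LPS mouse 1, 0.249% (0.246 to 0.251) in mouse 6 and 0.274% (0.272 to 0.276) in mouse 7. In the control mice they took 0.00136% (0.0012 to 0.00154), 0.00127% (0.00112 to 0.00144) and 0.0014% (0.00124 to 0.00157). Dual-treated mice 2 and 5 had 0.00615% (0.00581 to 0.0065) and 0.00202% (0.00183 to 0.00222), both above the control mice. *Cxcl10* supplied 93.1%, 93.7% and 89.2% of the ligand counts in the control mice, 83.5%, 72.1% and 79% in the LPS mice, and 50.8% and 43.1% in the dual-treated mice. Its share was thus lower in each LPS mouse than in any control mouse, and lowest in the dual-treated mice.

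Ratios of ligands within a library do not depend on how libraries are scaled, and were computed on counts with 0.5 added. The log2 ratio of *Cxcl9* to *Cxcl10* was -4.06, -4.03 and -3.17 in control mice 1, 2 and 4, -2.37, -1.39 and -1.92 in LPS mice 1, 6 and 7, and -0.05 and 0.37 in dual-treated mice 2 and 5. The groups formed 3 steps with no overlap, and in the dual-treated mice both RNAs had nearly equal counts. The ratio was 3.63-fold higher in the LPS group than in control (log2 difference 1.86) and 4.16-fold higher in the dual-treatment group than in the LPS group (log2 difference 2.06). Against control the dual-treatment ratio was 15.1-fold higher (log2 difference 3.91). Each difference had a two-sided exact permutation p of 0.1, the smallest that 3 against 3 or 3 against 2 mice can give, and 0.15 after Benjamini-Hochberg adjustment over 9 ratio tests, so none could pass 0.05.

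The log2 ratio of *Cxcl11* to *Cxcl10* was -5.75, -6.56 and -6.20 in control mice 1, 2 and 4, -8.28, -7.57 and -8.68 in LPS mice 1, 6 and 7, and -7.96 and -5.34 in dual-treated mice 2 and 5. The LPS group lay below control without overlap, and the dual-treated mice spread over both. The differences were -2.01 between LPS and control (exact permutation p 0.1, adjusted 0.15), 1.53 between dual-treatment and LPS (exact permutation p 0.3, adjusted 0.386) and -0.48 between dual-treatment and control (exact permutation p 0.8, adjusted 0.8). Without dual-treated mouse 2 the last difference was 0.83.

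The log2 ratio of *Cxcl9* to *Cxcl11* was 1.69, 2.54 and 3.03 in the control mice, 5.92, 6.17 and 6.76 in the LPS mice, and 7.91 and 5.72 in the dual-treated mice. Control lay below both other groups, which overlapped each other. From control, the LPS group differed by 3.87 and the dual-treatment group by 4.39 (exact permutation p 0.1 and adjusted 0.15 for each). Between the dual-treatment and LPS groups the difference was 0.53 (exact permutation p 0.7, adjusted 0.787), and it was -0.57 without dual-treated mouse 2. *Cxcl11* counts of 2 to 4 in the control and dual-treated libraries limit both of its ratios there.

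**Figure D2:**
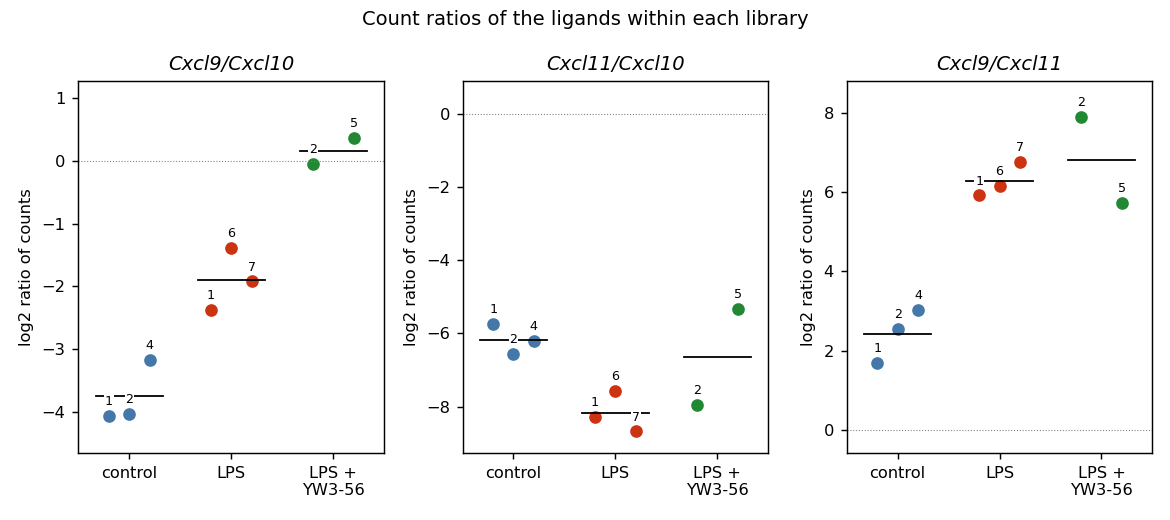
Log2 ratio of counts between pairs of ligands, with 1 point per mouse (numbered) in the control, LPS and dual-treatment groups and a line at each group mean. The mean ratio of *Cxcl9* to *Cxcl10* was -3.75, -1.89 and 0.16 in the 3 groups in that order, with no overlap between groups.

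Cytokines that induce the ligands, directly or through lymphocytes, moved with them in part. *Ifng*, which encodes interferon gamma, had 2, 1 and 3 counts in control mice 1, 2 and 4, 93, 41 and 8 counts in LPS mice 1, 6 and 7, and 0 and 5 counts in dual-treated mice 2 and 5. All LPS libraries had more than any other library, mouse 1 the most and mouse 7 the fewest, and the control and dual-treatment groups overlapped. By summed counts the LPS level was 28.8-fold the control level (95% counting interval 12.9 to 79.9) and 24.4-fold the dual-treatment level (10.2 to 76.4). The fitted log2 fold changes were 4.79 (SE 1.05, adjusted p 0.00283) for LPS against control and -4.57 (SE 1.21, adjusted p 0.00935) for dual-treatment against LPS in edgeR's quasi-likelihood test after Benjamini-Hochberg adjustment. Without LPS mouse 1, or without LPS mouse 6, *Ifng* no longer passed the filter on low counts and had no test. Like *Cxcl11*, it passed that filter through the LPS libraries only, since no other library had more than 5 counts. Its calls are those of a gene admitted by the group in which it was high, and support nothing further.

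Of the 8 listed inducing cytokines, *Ifnb1* and *Il12b* were too low to test, with at most 11 and 13 counts in a library. Of the other 6, 3 were DEGs with higher RNA in the LPS group, where 17.9% of all tested genes were. The same number had lower RNA in the dual-treatment group than in the LPS group, where 14.0% of all tested genes did. The list medians were 1.42 and -1.37. Both counts include *Ifng*, which was admitted through the LPS libraries. The other called genes were *Il12a* (1.79 and -1.54) and *Il15* (1.51 and -1.59), given as log2 fold changes for LPS against control and dual-treatment against LPS. *Tnf* (0.89 and -0.64), *Il27* (1.34 and -1.19) and *Il18* (-0.66 and 0.92) were not DEGs in either. With 1 library left out at a time, the number higher in the LPS group ranged from 2 to 5, the 2 being without LPS mouse 1 and the 5 without LPS mouse 7. Without both LPS mice 6 and 7, 5 were higher in the LPS group and 5 lower in the dual-treatment group against LPS. Against control, 0 of the 6 were DEGs in the dual-treatment group by edgeR's quasi-likelihood test, 0 at an unadjusted p under 0.05 and 0 by DESeq2.

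Receptors, kinases and transcription factors of interferon signalling changed in part. Of 13 such genes, 6 were DEGs with higher RNA in the LPS group, 5 had lower RNA in the dual-treatment group than in the LPS group, and 1 had higher RNA in the dual-treatment group than in control. The shares of all tested genes in these comparisons and directions were 17.9%, 14.0% and 5.25%. The list medians were 0.80, -0.73 and 0.19, and the standard errors in the LPS group ran from 0.0957 to 0.227. *Irf7* changed most in the LPS group, by 4.87 on the log2 scale, and was the 1 gene still above control in the dual-treatment group, by 3.39. *Stat2* (2.97), *Irf1* (2.68), *Irf8* (2.17), *Jak2* (1.57) and *Irf9* (1.13) were the other 5 in the LPS group, and *Irf9* fell under the fold threshold at 0.84 when libraries were scaled by size alone. Against the LPS group, the dual-treatment group had log2 fold changes of -2.94 for *Irf1*, -2.32 for *Stat2*, -1.79 for *Irf8*, -1.48 for *Irf7* and -1.41 for *Jak2*. The interferon receptor genes *Ifngr1*, *Ifngr2*, *Ifnar1* and *Ifnar2* had log2 fold changes between -0.40 and 0.80 in the LPS group and none was a DEG.

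Among the interferon genes named so far, the largest overlap with exons of other genes was 46% of *Irf1*, on the opposite strand. On the same strand 25.9% of the exon bases of *Ifng* and 20% of those of *Ifnar2* were shared. All 4 listed brakes on interferon signalling were DEGs with higher RNA in the LPS group, where 17.9% of all tested genes were. All 4 brakes also had lower RNA in the dual-treatment group than in the LPS group, where 14.0% of all tested genes did. Their log2 fold changes were 4.37 and -4.32 for *Socs1*, 3.13 and -2.21 for *Socs3*, 2.89 and -1.85 for *Usp18*, and 2.36 and -1.91 for *Ptpn2*. *Usp18* was also above control in the dual-treatment group, by 1.04 (adjusted p 0.0367 in edgeR's quasi-likelihood test), and lost that call without dual-treated mouse 2 (0.61) or without control mouse 1 (0.99), 2 (1.20) or 4 (0.91).

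Among 13 other genes that interferon gamma induces, 12 were DEGs with higher RNA in the LPS group, where 17.9% of all tested genes were. In the dual-treatment group 11 had lower RNA than in the LPS group, where 14.0% of all tested genes did. The list medians were 4.51 and -3.30 on the log2 scale, with standard errors of single genes of 0.134 to 0.484 and 0.15 to 0.555. Without LPS mice 6 and 7 the numbers called were the same for this list, for the brakes and for interferon signalling. Summed over the list, levels were 356, 361 and 385 CPM in control mice 1, 2 and 4, 7000, 6110 and 5420 CPM in LPS mice 1, 6 and 7, and 788 and 566 CPM in dual-treated mice 2 and 5. The dual-treated mice lay between the other groups, mouse 2 above mouse 5 as for *Cxcl9* and *Cxcl10*. The most abundant gene of the list was *Gbp2* in the LPS mice and *Tap1* in the control and dual-treated mice. The largest log2 fold changes in the LPS group were 5.83 for *Ido1*, 5.42 for *Gbp5*, 5.04 for *Cd274* and 4.80 for *Gbp3*, all under those of the 3 ligands. Those in the dual-treatment group against LPS were -5.40 for *Ido1*, -4.46 for *Gbp5*, -4.08 for *Cd274* and -3.81 for *Irgm1*.

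*Ciita* was a DEG in neither comparison, and *Psmb9*, at 1.06 and -0.43, only in the LPS group, where it fell under the fold threshold without control mouse 2 (0.97) or LPS mouse 1 (0.96). Against control, the dual-treatment group had a list median of 0.91, and 5.25% of all tested genes were higher. Of the 13 listed genes 3 were DEGs there, all higher. These were *Gbp3* (1.50), *Nos2* (1.41) and *Gbp2* (1.04). The number was 1 without dual-treated mouse 2, when *Gbp3* was at 0.95 and *Gbp2* at 0.63, and 7 without dual-treated mouse 5. *Gbp2* also lost its call without control mouse 1 (0.93) or 2 (1.07). *Cxcl9* stood higher against control than any gene of this list in the dual-treatment group.

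**Figure D3:**
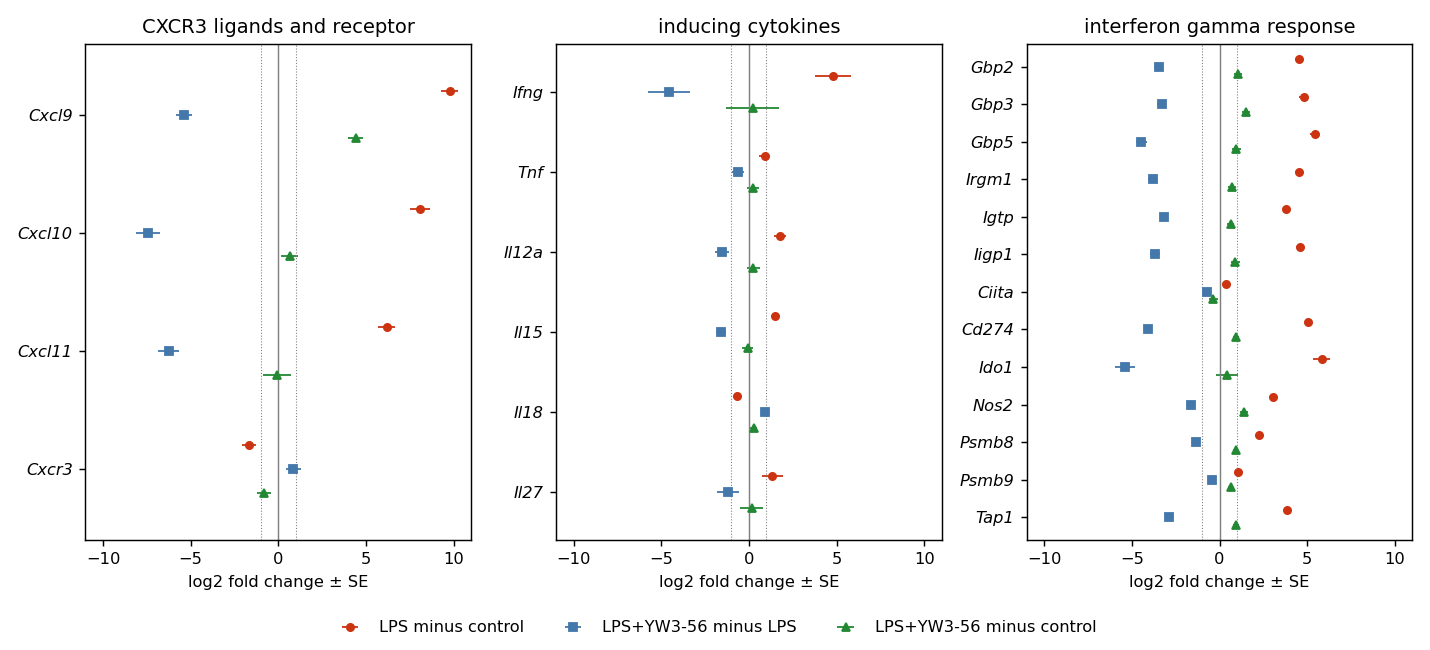
Log2 fold changes with standard errors for the 4 genes, the tested inducing cytokines and the interferon gamma response genes, as red circles for LPS minus control, blue squares for dual-treatment minus LPS and green triangles for dual-treatment minus control, with dotted lines at a fold of 2. The ligands lie at 9.78, 8.07 and 6.17 in red, and *Cxcl9* lies at 4.40 in green while *Cxcl10* and *Cxcl11* lie at 0.64 and -0.08.

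Genes listed for CXCR3 signalling, among them the integrin gene *Itgal*, went both ways in the LPS group. Of 9 such genes, *Rac2* was a DEG with higher RNA in the LPS group (log2 fold change 1.88) and *Arrb1*, an arrestin gene, with lower RNA (-2.65), with a list median of 0.27. These are 2 of 9, where 39.2% of all tested genes were DEGs. In the dual-treatment group 3 were higher than in the LPS group, *Arrb1* by 2.26, *Itgal* by 1.88 and *Pik3cg* by 1.16, the last being a DEG neither without dual-treated mouse 2 (0.40) nor without LPS mice 6 and 7 (1.04). Likewise 3 were higher than in control, *Rac2* by 2.19, *Itgal* by 2.15 and *Pik3cg* by 1.94. The list medians of these comparisons were 0.58 and 0.50, and 33.8% and 7.15% of all tested genes were DEGs in them. The inhibitory G protein genes *Gnai2* and *Gnai3*, which couple to the receptor, had log2 fold changes of -0.41 and 0.85 in the LPS group and were not DEGs.

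Several proteins bind or cut the ligands outside the cell, and 5 genes of this kind or for other CXCR3 ligands were listed. *Dpp4*, whose peptidase trims the ligands to forms that signal less, was lower in the LPS group (-2.24) and higher in the dual-treatment group than in the LPS group (1.50). *Ackr3*, an atypical receptor that binds CXCL11, was higher in the LPS group (4.23), lower in the dual-treatment group than in the LPS group (-2.19) and still higher than control there (2.05). *Ackr1*, an endothelial and red cell receptor for many chemokines, followed the same order with 7.11, -1.98 and 5.13, from 13 counts in all 3 control mice together. *Pf4*, which encodes a platelet chemokine that also binds CXCR3, was a DEG in the dual-treatment group against control only (1.12), and lost that call without either dual-treated mouse or any 1 control mouse, with values from 0.90 without control mouse 2 to 1.24 without dual-treated mouse 2. *Ackr2* was not a DEG in any comparison. In all, 2 of the 5 were higher and 1 lower in the LPS group, 1 higher and 2 lower in the dual-treatment group against LPS, and 3 higher in the dual-treatment group against control. Of all tested genes, 17.9% were higher and 21.3% lower in the LPS group. The shares were 19.8% and 14.0% against LPS, and 5.25% were higher against control. The counts of 1 gene lie near those shares and are no result about the list.

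Cells that carry CXCR3 were read through listed marker genes. Summed over 12 T cell markers, levels were 43.7, 34.2 and 36 CPM in control mice 1, 2 and 4, 42.8, 30.6 and 21.4 CPM in LPS mice 1, 6 and 7, and 18 and 25.9 CPM in dual-treated mice 2 and 5. Control and LPS overlapped, both dual-treated mice lay below all control mice, and the most abundant marker was *Cd2* in the control mice and *Lck* in the others. No T cell marker had 0 counts in any library, and standard errors of their log2 fold changes in the LPS group ran from 0.301 to 0.565. Of the 12, 0 were higher in the LPS group by edgeR's quasi-likelihood test, 0 at an unadjusted p under 0.05 and 1 by DESeq2, while 3 were lower. A lower level in 3 of 12 is near the 21.3% of all tested genes that were lower in the LPS group, and is no result about T cell markers. The 3 were *Cd2* (-1.81), *Cd4* (-1.52) and *Cd3g* (-1.48). *Cd4* (-0.60) and *Cd3g* (-0.78) were not DEGs without LPS mice 6 and 7. With 1 library left out the number lower ranged from 1 to 5, with 1 when control mouse 1, LPS mouse 6 or LPS mouse 7 was left out and 5 when LPS mouse 1 was.

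In the dual-treatment group 3 T cell markers were lower than in the LPS group, *Trac* by -1.78, *Cd28* by -1.69 and *Cd3d* by -1.29 on the log2 scale. Of all tested genes, 14.0% were lower in that comparison. *Cd28* lost its call without dual-treated mouse 5 (-1.42), and *Cd3d* lost it without LPS mouse 1 (-1.22) or 6 (-0.97) or dual-treated mouse 2 (-1.63) or 5 (-1.05). Without LPS mice 6 and 7, 5 markers were lower. Against control, 0 were DEGs by edgeR's quasi-likelihood test, with 1 lower at an unadjusted p under 0.05 and 2 lower by DESeq2. The list medians were -0.01 for LPS against control, -0.59 for dual-treatment against LPS and -0.87 for dual-treatment against control. The *Cxcr3* log2 fold changes in these comparisons were -1.67, 0.85 and -0.82. The part of T cell numbers in the *Cxcr3* values was not tested.

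NK cell markers, 7 of 8 tested, summed to 18.5, 13.8 and 17.3 CPM in control mice 1, 2 and 4, 53.7, 45.3 and 24.3 CPM in LPS mice 1, 6 and 7, and 42.9 and 86.4 CPM in dual-treated mice 2 and 5. *Gzma* was the most abundant of them, and every LPS and dual-treated mouse lay above the control mice. Single markers went both ways: in the LPS group 3 were higher, *Gzma* (2.03), *Prf1* (1.70) and *Klrk1* (1.34), and 2 were lower, *Klrd1* (-3.88) and *Ncr1* (-2.18). Of all tested genes 17.9% were higher and 21.3% lower there. The shares were 19.8% and 14.0% in the dual-treatment group against LPS, and 5.25% were higher against control. *Ncr1* lost its call without control mouse 4 (-1.38) or LPS mouse 1 (-2.59), 6 (-2.18) or 7 (-1.85). *Ncr1* (4.11) and *Klrd1* (3.76) were higher in the dual-treatment group than in the LPS group, as was *Klrb1c* (1.37), and *Klrk1* was lower (-1.32). In LPS mice 1, 6 and 7 *Ncr1* had 3, 2 and 1 counts and *Klrd1* 3, 3 and 2. The sizes of their fold changes in both comparisons with the LPS group thus rest on few counts. *Klrb1c* was not a DEG without dual-treated mouse 5 (0.92), and without LPS mice 6 and 7 neither *Klrb1c* (1.37) nor *Ncr1* (3.51) was. *Gzma* (2.82) and *Prf1* (2.37) were the 2 called above control in the dual-treatment group by edgeR's quasi-likelihood test, with 5 higher at an unadjusted p under 0.05 and 2 by DESeq2. The other 3 were *Ncr1* (1.93), *Nkg7* (1.24) and *Klrb1c* (1.22). The test called 3 without LPS mouse 7, dual-treated mouse 2 or LPS mice 6 and 7. *Xcl1* was too low to test and was at 0 in LPS mouse 7 and dual-treated mouse 2. The part of NK cells in the *Cxcr3* values was not tested.

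Genes of the type 1 lymphocyte programme, which runs with CXCR3 in T and NK cells, were mixed. Of 9, 3 were higher in the LPS group, *Il18rap* (4.09), *Il12rb2* (2.77) and *Stat4* (1.30), and *Cxcr6* (-1.76) was lower, as *Cxcr3* was. In the dual-treatment group against LPS, *Il12rb2* (-2.77), *Il18rap* (-2.38) and *Stat4* (-1.39) were lower. *Stat4* lost the latter call without dual-treated mouse 2 (-1.18), and both of its calls without LPS mice 6 and 7 (1.18 and -1.27). Against control, *Il18rap* (1.71) and *Il12rb1* (1.45) were higher and *Cxcr6* (-1.41) was lower. *Il12rb1* lost that call without either dual-treated mouse or any 1 control mouse (1.25 to 1.56), and *Cxcr6* without dual-treated mouse 2 (-1.20) or any 1 control mouse (-1.46 to -1.36). *Tbx21*, whose product activates *Cxcr3*, had log2 fold changes of 0.76 and -0.68 in the LPS group and in the dual-treatment group against LPS, and was not a DEG.

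Markers of cells that can make the ligands are given beside the shares of all tested genes, which were 17.9% higher and 21.3% lower in the LPS group, and 19.8% higher and 14.0% lower in the dual-treatment group against LPS. Of 8 monocyte and macrophage markers, 2 were higher and 2 lower in the LPS group, and 5 were higher in the dual-treatment group than in the LPS group, with summed levels (*Ly6c2* the most abundant in the LPS group and *Csf1r* in the others) of 221 to 286 CPM in control, 255 to 385 CPM in LPS and 754 and 805 CPM in dual-treated mice. Against control, 6 of the 8 were higher in the dual-treatment group, with a median of 1.74, where 5.25% of all tested genes were higher. The number was 5 by DESeq2 and when control mouse 1, control mouse 2 or dual-treated mouse 5 was left out. *Csf1r* (-1.01), which with *Ccr2* (-3.19) was lower in the LPS group, fell short of the fold threshold without control mouse 4 (-0.93), LPS mouse 7 (-0.91) or LPS mice 6 and 7 (-0.90). Of 6 endothelial markers, 4 were lower in the LPS group and 4 higher in the dual-treatment group against LPS, with summed levels of 2920 to 3420, 1720 to 2090, and 2910 and 3120 CPM. The 2 endothelial markers not called in the LPS group were *Cdh5* (0.17) and *Cldn5* (-0.02). Of 6 lung epithelial markers, 1 was higher in the LPS group and 2 were lower in the dual-treatment group against LPS, and their sum was 66100 to 72600 CPM in control, 68900 to 92800 CPM in LPS and 40200 and 54000 CPM in dual-treated mice. *Scgb1a1*, a club cell marker, led that list in CPM, and lung markers were abundant in all 8 libraries. The part of these cells in the ligand values was not tested.

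Neutrophils, which the ligands do not attract, had 5 of 6 markers higher in the LPS group, where 17.9% of all tested genes were. In the dual-treatment group against control 5 of 6 were higher, where 5.25% of all tested genes were. Their summed level was 115 to 209 CPM in control, 1820 to 2900 CPM in LPS and 1650 and 2310 CPM in dual-treated mice, and most of it came from *S100a8* and *S100a9*. Against the LPS group, 3 of the 6 were higher in the dual-treatment group, where 19.8% of all tested genes were, and *Ly6g* was lower by a log2 fold change of -2.75, from a mean of 16.1 CPM to 2.39 CPM. The number higher was 1 without dual-treated mouse 5, when *Csf3r* was at 0.38 and *Cxcr2* at 0.97, and *Csf3r* also lost its call without LPS mouse 1 (0.99) or LPS mouse 7 (0.97). Without LPS mice 6 and 7, *Csf3r* (1.14), *Cxcr2* (1.13), *Retnlg* (1.35) and *Ly6g* (-2.08) all kept their direction and none was a DEG. Of 3 tested plasmacytoid dendritic cell markers, *Siglech* was lower in the dual-treatment group than in the LPS group, where 14.0% of all tested genes were. *Siglech* had 33 counts in the control, 16 in the LPS and 1 in the dual-treatment group. Its LPS level was 13.8-fold the dual-treatment level (counting interval 2.14 to 577), and the call was lost without LPS mouse 1 (-2.85) or dual-treated mouse 2 (-2.66), given as log2 fold changes. Of 4 fibroblast markers, 1 was lower in the LPS group and 1 higher in the dual-treatment group against LPS. The shares of all tested genes were 17.9% higher and 21.3% lower in the LPS group, and 19.8% higher and 14.0% lower against LPS. The fibroblast counts lie near those shares and are no result about fibroblast markers. B cell and lymph node markers, 5 tested, split with 2 higher and 2 lower in each of these comparisons, although against LPS 1 was lower when any library but that of dual-treated mouse 2 was left out, and 1 was higher without dual-treated mouse 5. Thymus markers summed to at most 0.356 CPM in a library, and none of the 4 could be tested.

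Protein-coding genes beside the ligands moved in part with them. Within 200 kb of the cluster, 9 other protein-coding genes were tested, and 6 were DEGs with higher RNA in the LPS group, where 17.9% of all tested genes were. *Scarb2* (1.78), *Sdad1* (1.77), *Art3* (1.37), *Nup54* (1.31) and *Fam47e* (1.10) had log2 fold changes well under those of the ligands, and *Fam47e* fell under the fold threshold without LPS mouse 7 (0.92) and without LPS mice 6 and 7 (0.97). *U90926* had 0 counts in every control library and a mean of 1.08 CPM in the LPS group, at least 7.62-fold above a floor of 3 counts per library. No library outside the LPS group had more than 3 counts, so its calls rest on the group in which it was high. In the dual-treatment group 3 were lower than in the LPS group, where 14.0% of all tested genes were, and DESeq2 called 5 lower. The edgeR log2 fold changes of *Sdad1* (-0.97), *Fam47e* (-0.96) and *Nup54* (-0.93) lay near the fold threshold. The 3 called by edgeR were *Scarb2* (262 against 1050 CPM), *Art3* (log2 fold change -1.64) and *U90926*, whose LPS level was 16.1-fold the dual-treatment level (counting interval 5.22 to 80.2) and which was not a DEG there without LPS mice 6 and 7. The remaining *Uso1* (-0.29), *Ppef2* (-0.73) and *Naaa* (0.52) were not DEGs in the LPS group. Against control 0 of the 9 were DEGs in the dual-treatment group by edgeR's quasi-likelihood test, 0 at an unadjusted p under 0.05 and 0 by DESeq2. *Art3*, which overlaps *Cxcl10* on the opposite strand, had 62.5 CPM in the LPS group, where *Cxcl10* had 3100 CPM. By mean CPM, which is not corrected for gene length, *Art3* lay above *Cxcl10* in the control group, at 24.2 against 11.6 CPM. In the dual-treatment group the means were 20.1 and 18.1 CPM, but the order differed between mice. *Cxcl10* was the higher in mouse 2 (28.2 against 24.5 CPM) and *Art3* in mouse 5 (15.8 against 7.99 CPM).

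Beside *Cxcr3*, 3 of 6 protein-coding genes within 200 kb could be tested. *Ogt* was lower in the LPS group (log2 fold change -1.88, SE 0.139) and higher in the dual-treatment group against LPS (1.66, SE 0.149), with adjusted p of 3.72e-06 and 2.3e-05 in edgeR's quasi-likelihood test after Benjamini-Hochberg adjustment. *Taf1* (-0.18) and *Nhsl2* (0.14) were not DEGs.

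**Figure D4:**
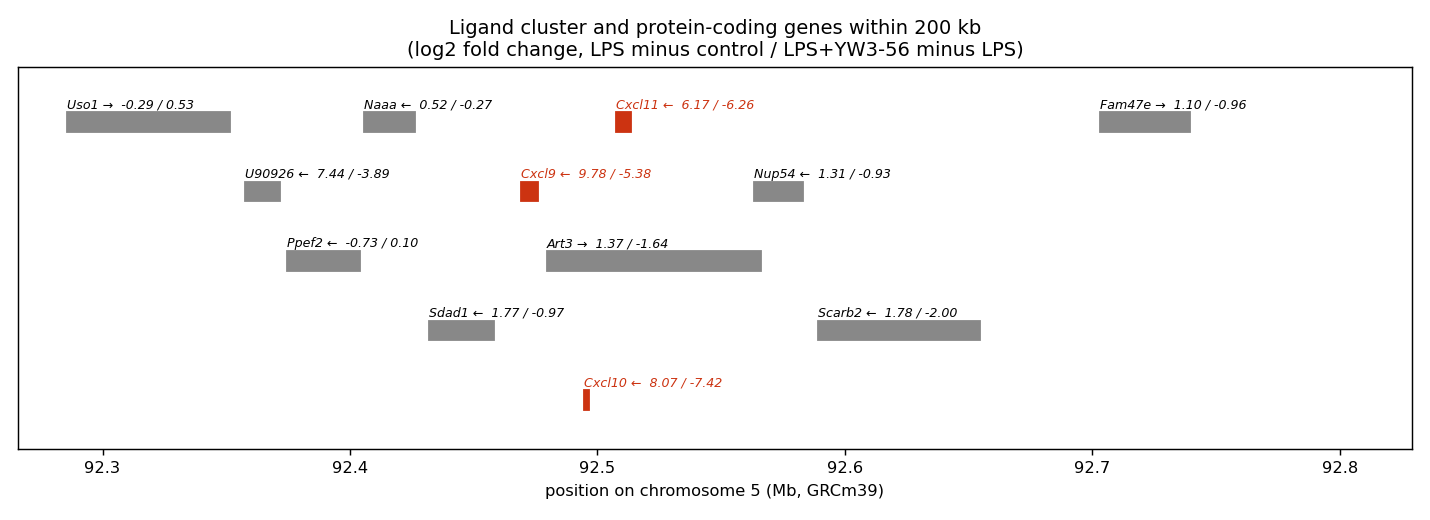
Map of the ligand cluster and the protein-coding genes within 200 kb on chromosome 5 (GRCm39, position along the horizontal axis), with ligands in red, other genes in grey, arrows for the strand, and log2 fold changes printed as LPS minus control and dual-treatment minus LPS. The ligands read 9.78 and -5.38, 8.07 and -7.42, and 6.17 and -6.26, and *Scarb2* reads 1.78 for LPS minus control.

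Genes with the most similar pattern were ranked by Pearson's r of log2 CPM with each gene over the 8 libraries, among up to 15613 tested genes with a mean of at least 1 CPM. The libraries fall into 3 groups and share depth and scaling, so r is a description and carries no p. For *Cxcl9* the top genes were *Gm12250* (r = 0.9985), *Gtf2f2* (0.9974), *Slc35b1* (0.9970), *Tnip1* (0.9969) and *Fth1* (0.9968), whose dual-treatment means, like that of *Cxcl9*, lay between the control and LPS means. For *Cxcl10* they were *Etf1* (0.9986), *Cdkn1a* (0.9984), *Map4k4* (0.9983), *Ifit2* (0.9983) and *Tmem248* (0.9980). *Slc26a4* (0.9975), *Tnfrsf4* (0.9969), *Mat2b* (0.9966), *Calhm6* (0.9965) and *Arl1* (0.9957) led for *Cxcl11*. *Syp* (0.9934), *Akap7* (0.9931), *Slc43a2* (0.9863), *Ppp1r9b* (0.9852) and *Ndst1* (0.9850) led for *Cxcr3*. Among the 4 genes themselves, r was 0.9783 between *Cxcl10* and *Cxcl11*, 0.9339 between *Cxcl9* and *Cxcl10*, 0.9039 between *Cxcl9* and *Cxcl11*, and -0.9350 between *Cxcr3* and *Cxcl9*. None of the ligands was thus among the 5 nearest to another.

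Because the ligands moved together, their promoters are shown from 250 bases before to 50 bases after the start of transcription, as given by RefSeq for GRCm38.p6. The table held 3 of the 4 genes and lacked *Cxcl11*. Each window was searched on both strands for the interferon gamma-activated site (GAS, TTCNNNGAA), the core of the interferon-stimulated response element (ISRE, GAAANNGAA), the kappa-B consensus and the TATA box (TATAAA), and matches are in capitals. The windows are chr5:92328030-92328329 for *Cxcl9*, chr5:92348840-92349139 for *Cxcl10* and chrX:101734098-101734397 for *Cxcr3*, all on the minus strand and written 5′ to 3′.
Cxcl9: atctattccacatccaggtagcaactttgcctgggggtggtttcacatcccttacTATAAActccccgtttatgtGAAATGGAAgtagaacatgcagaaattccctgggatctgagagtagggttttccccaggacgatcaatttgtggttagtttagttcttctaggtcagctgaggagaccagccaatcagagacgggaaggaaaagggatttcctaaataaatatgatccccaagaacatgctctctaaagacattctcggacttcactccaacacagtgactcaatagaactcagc
Cxcl10: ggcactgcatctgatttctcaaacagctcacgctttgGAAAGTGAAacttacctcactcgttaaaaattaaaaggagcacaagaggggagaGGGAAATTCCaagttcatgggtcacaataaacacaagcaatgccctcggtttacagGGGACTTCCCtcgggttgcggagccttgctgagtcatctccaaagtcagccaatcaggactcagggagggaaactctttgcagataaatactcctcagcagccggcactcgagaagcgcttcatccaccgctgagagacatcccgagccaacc
Cxcr3: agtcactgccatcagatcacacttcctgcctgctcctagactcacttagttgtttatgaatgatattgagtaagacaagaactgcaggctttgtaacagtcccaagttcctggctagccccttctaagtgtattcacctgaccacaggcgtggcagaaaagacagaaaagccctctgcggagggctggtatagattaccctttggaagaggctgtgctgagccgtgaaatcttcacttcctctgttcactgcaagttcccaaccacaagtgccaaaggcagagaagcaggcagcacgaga
The *Cxcl9* window held the ISRE core as GAAATGGAA, 175 bases before the start, and TATAAA 195 bases before it. The *Cxcl10* window held the ISRE core as GAAAGTGAA, 213 bases before the start, and the kappa-B consensus as GGGAAATTCC and GGGACTTCCC, 159 and 103 bases before it. No match overlapped another. The *Cxcr3* window, whose gene moved the other way, held none of the 4 motifs, and neither ligand window held the GAS letters. Among all 32851 promoters of the table, 8.3% held the GAS letters, 8.56% the ISRE core, 4.51% the kappa-B consensus and 13.6% TATAAA. A match describes letters in a window and does not show that a factor binds there.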

How the data were processed

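RNA-seq of 8 lung samples was used as deposited: per the labels, the authors trimmed reads with Trim Galore, checked them with FastQC 0.11.9, aligned them to GRCm39 with HISAT2 2.2.1 and deposited raw read counts per gene from featureCounts 2.0.1. The annotation release, strand setting and treatment of multimapped reads are not stated. Library totals are given with the results. Of 55416 Ensembl identifiers, 54749 matched GENCODE M39. Genes that passed edgeR's filterByExpr by group were fitted in edgeR 4.0.16 (R 4.3.3) with TMM factors and 1 quasi-likelihood model of the 3 groups, which leaves 5 residual degrees of freedom. DESeq2 1.42.0, other scalings, filters and thresholds, and leaving out libraries were tried as alternatives. Ratios were compared by two-sided exact permutation tests. The procedure was also tested on simulated data. Members and lists were chosen with earlier results of these data known. Genes named are the 4 members, their neighbours within 200 kb, the 5 genes most similar to each, and listed genes, with the called genes of largest change first. Lists are described by counts and medians without a test.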

Additional observations from a re-analysis of the deposited data

How the results depend on the processing

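The calls of *Cxcl9*, *Cxcl10* and *Cxcl11* in the LPS group against control and in the dual-treatment group against LPS, and of *Cxcl9* against control, kept their direction and their side of the threshold under every alternative that gave a value. Over 173 alternative log2 fold changes of the 4 genes, 168 kept both. Leaving out 1 library at a time gave 9.61 to 10.17, -6.26 to -4.86 and 3.52 to 4.91 for *Cxcl9* (LPS against control, dual-treatment against LPS, dual-treatment against control), 7.56 to 8.31, -8.61 to -6.79 and -0.56 to 1.26 for *Cxcl10*, 5.78 to 6.49, -6.80 to -5.86 and -0.64 to 0.27 for *Cxcl11*, and -1.93 to -1.53, 0.71 to 1.11 and -0.93 to -0.75 for *Cxcr3*. Against control, *Cxcl10* reversed to -0.56 without dual-treated mouse 2, and *Cxcl11* to 0.19 without control mouse 1 and 0.27 without dual-treated mouse 2. None of these was a DEG, and the cause was not tested. *Cxcr3* lost its LPS call without LPS mice 6 and 7 (-1.23), and gained one in the dual-treatment group against LPS with scaling by library size only (1.18), where the median of all genes moved to 0.38. The kept share of the *Cxcr3* response moved to 48.3% with 0.5 counts added and to 40.8% with library size only. Leaving out 1 library gave ratio differences of -1.79 to 0.83 for *Cxcl11* to *Cxcl10* (dual-treatment against control) and -0.57 to 1.62 for *Cxcl9* to *Cxcl11* (dual-treatment against LPS), while the *Cxcl9* to *Cxcl10* differences kept their sign (1.61 to 2.15, 1.82 to 2.31 and 3.70 to 4.21). Leaving out 1 library at a time, DEG numbers ranged over 6866 to 7595, 5231 to 6188 and 752 to 1831 for the same order of comparisons, the 752 being without dual-treated mouse 2. Requiring 10 counts in every library gave 4933, 4227 and 1081, no filter gave 7972, 6757 and 1664, and unadjusted p with the fold criterion gave 7450, 6554 and 1944. Without the fold criterion they were 12346, 10960 and 2997. Scaling by library size only moved the share of DEGs with higher RNA from 45.6% to 32.5% (LPS against control) and from 58.5% to 74.7% (dual-treatment against LPS). Among listed genes, 2552 of 2671 alternative values kept direction and side, 114 lost the call, and 5 reversed, all without LPS mice 6 and 7: *Krt13* 1.24, *Krtdap* 0.00 and 5.83, and *Mylpf* -1.26 and 1.46. Of 1704 alternative list counts, 127 moved. Leaving out both LPS mice 6 and 7, and leaving out libraries for the ratios, were chosen after seeing the data. *Cxcl11* and *Cxcr3* had no value when 10 counts were required in every library, and *Cxcl11* was not tested against control when only the dual-treatment and control groups were fitted. Leaving out a dual-treated mouse, or both LPS mice 6 and 7, leaves 1 sample in that group, assumed to vary like the other groups. No paired analysis was possible because control and LPS share only mouse number 1, control and dual-treatment only number 2, and the labels do not say that numbers link mice. Depth limits *Cxcl11* outside the LPS group (2 to 4 counts) and *Cxcr3* in it (7 to 11 counts).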
